A study of Mus musculus with 6 samples.

Results

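The genes described here are 10 genes of the interleukin-1 (IL-1) family, its receptors and the Toll-like receptors, taken by their gene symbols from the 24016 genes of an RNA-seq table. They comprise the ligands *Il33* and *Il18*, the receptor chains *Il1rl1* (ST2), *Il1r1* and *Il1rap*, the Toll-like receptors *Tlr2*, *Tlr3* and *Tlr4*, the co-receptor *Cd14* and the adaptor *Myd88*. All 10 were found in the table. The choice was made with earlier results of these data known. In a single subclone of MC3T3-E1, a wild-type mouse preosteoblast line, differentiation had been induced for 6 days in medium containing 10 mM β-glycerophosphate and ascorbic acid at 50 μg/ml. The 3 cultures of the vehicle group and the 3 of the corticosterone group were then treated for 24 h, with corticosterone at 100 nM. The labels place calcitriol (10 nM) in the medium during treatment without excepting the vehicle cultures, and give passages 4 to 10 in one field and 6 to 12 in another. The study made this comparison to see what corticosterone, the main glucocorticoid of mice, changes in osteoblasts.

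The receptors of IL-1 family cytokines and the Toll-like receptors share a signalling domain, the TIR domain. It sits on the inner side of these receptors and is also found in the adaptor MyD88. IL-33 is a nuclear cytokine of stromal and barrier cells that is released on damage and binds ST2, and IL-1 and IL-33 receptors both need the accessory chain encoded by *Il1rap* to signal. Toll-like receptors sense microbial products, such as bacterial lipoproteins (TLR2), double-stranded RNA (TLR3) and lipopolysaccharide (TLR4 with CD14). Glucocorticoids are known for dampening the output of both receptor families.

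Each deposited value is a count of reads scaled by the factor of its library, and is given below as a normalized count. The libraries held between 16020401 and 25638645 reads on genes, and all 3 corticosterone libraries were shallower than the 3 vehicle libraries. In normalized counts, 3 reads correspond to 2.32 to 3.84. The moderated test of limma was run on log2(normalized count + 0.1), its p-values were adjusted by Benjamini-Hochberg across the 24016 genes, and a gene is said to rise or fall at an adjusted p under 0.05. Log2 fold changes, with their standard errors (SE), are on that scale, corticosterone against vehicle. All 8 osteoblast markers examined (*Runx2*, *Sp7*, *Col1a1*, *Col1a2*, *Alpl*, *Bglap*, *Ibsp* and *Spp1*) were detected in each library, with a summed normalized count of 1357310 to 1403410 with vehicle and 1182180 to 1237730 with corticosterone. Of the 8, 7 fell and *Spp1* (osteopontin) rose, with log2 fold changes from -1.87 for *Bglap* (osteocalcin) to 0.23. The part of this shift in the results below was not tested.

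After corticosterone, *Il33* fell about 10.3-fold, *Il1rl1* rose 2.08-fold and *Myd88* rose 1.36-fold, while the other 7 genes did not pass the test. The call of *Myd88* ended without the third corticosterone library (limma adjusted p = 0.065). The ligand and its own receptor chain therefore moved in opposite directions. With 3 of 10 genes past the adjusted p, the share was 30%, against 16.7% of all genes tested and 27.7% of the 13880 genes with a mean normalized count of at least 10, which all 10 genes reach. In single directions, 2 of the 10 rose (8.49% of all genes) and 1 fell (8.2% of all genes). *Il1rl1* was also past a log2 fold change of 1 in the upward direction (1.38% of all genes) and *Il33* in the downward direction (1.4% of all genes). The split of calls over all genes, 2040 higher and 1970 lower, moved to 1349 higher and 2595 lower with upper-quartile scaling and to 1703 and 2521 with scaling to the same total. The 3 calls among the 10 genes held under both. The groups did not overlap in 5 of the 10 genes (*Il33*, *Il1rl1*, *Myd88*, *Tlr2* and *Tlr4*), against 29.6% of all genes. The median log2 fold change of the 10 genes was 0.062, and that of all genes was -0.013. On the reads recovered from the values, edgeR called the same 3 of the 10 genes (31.2% of the genes it tested), and so did DESeq2 (24% of the genes it tested).

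**Figure D1:**
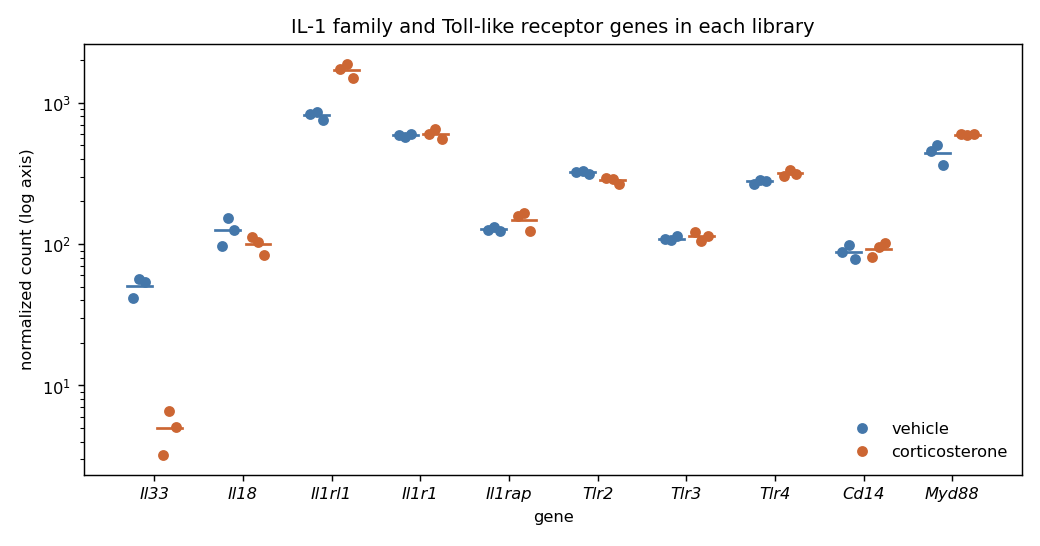
Normalized count (log axis) of each of the 10 genes in the 3 vehicle and the 3 corticosterone libraries. Points are libraries and lines are group means. The *Il33* points drop from between 41.4 and 56.3 to between 3.21 and 6.63, and the *Il1rl1* points rise from between 755 and 859.8 to between 1499 and 1889.8.

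The promoter sequences of *Il33* and *Il1rl1*, which had the largest fall and rise among the 10 genes, are shown first, since both have more than 1 annotated start and the table sums over all transcripts of a gene. *Il1rl1* (ENSMUSG00000026069) is a plus-strand gene of chromosome 1, at 40429570 to 40465415 (GRCm38). Its longest annotated transcript, with 11 exons, 5302 bases and a coding part of 1701 bases, begins at the proximal start, 40439627. Shorter transcripts with a coding part of 1011 bases begin near it, at 40439776, and at the distal start, 40429570. The longer protein of this gene spans the membrane, and a shorter, secreted form of ST2 acts as a decoy for IL-33. The values do not tell these forms apart. *Il33* (ENSMUSG00000024810) lies on chromosome 19, 29925114 to 29960718, on the plus strand. Of its 5 annotated transcripts, those that begin at 29925114 and at 29945790 both have 8 exons and a coding part of 798 bases. The other 3 are shorter, with coding parts of 199 to 684 bases.

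The 250 bases before each RefSeq start (GRCm38.p6, plus strand, 5′ to 3′) are given with the motifs found in capitals. Searched on both strands were AGAACA, which is part of the site of the glucocorticoid receptor, and TGANTCA, the AP-1 site. The letters GGGANTTTC, the first 9 of an NF-κB site, were searched as well. The others were GATAAG, bound by transcription factors of erythroid and mast cells, and finally the core promoter box TATAAA.
Il1rl1 distal start, chr1:40429320-40429569: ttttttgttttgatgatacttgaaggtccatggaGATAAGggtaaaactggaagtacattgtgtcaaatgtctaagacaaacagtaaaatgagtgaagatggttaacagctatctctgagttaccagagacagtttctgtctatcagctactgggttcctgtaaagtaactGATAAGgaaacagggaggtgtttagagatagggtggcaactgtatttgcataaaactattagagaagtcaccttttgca
Il1rl1 proximal start, chr1:40439379-40439628: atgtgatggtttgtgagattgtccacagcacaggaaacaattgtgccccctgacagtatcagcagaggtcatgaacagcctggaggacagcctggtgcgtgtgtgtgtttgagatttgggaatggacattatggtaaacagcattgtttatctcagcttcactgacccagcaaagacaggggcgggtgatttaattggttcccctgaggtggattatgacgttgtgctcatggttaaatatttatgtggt
Il33 distal start, chr19:29924863-29925112: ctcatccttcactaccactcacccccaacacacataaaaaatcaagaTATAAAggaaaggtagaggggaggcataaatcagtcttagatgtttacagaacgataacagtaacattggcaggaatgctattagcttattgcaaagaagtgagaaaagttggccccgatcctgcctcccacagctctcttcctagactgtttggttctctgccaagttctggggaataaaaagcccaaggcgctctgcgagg
Il33 proximal start, chr19:29945540-29945789: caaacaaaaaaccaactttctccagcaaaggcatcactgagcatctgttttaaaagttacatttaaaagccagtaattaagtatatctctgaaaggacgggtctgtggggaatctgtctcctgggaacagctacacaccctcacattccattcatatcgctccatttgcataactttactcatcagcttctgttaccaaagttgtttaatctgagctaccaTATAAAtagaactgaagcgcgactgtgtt

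The distal start of *Il1rl1* has GATAAG at 216 and 79 bases before the start, a motif held by 6.55% of all 32851 windows of this length. The proximal start of *Il1rl1* has none of the 5 motifs. The proximal start of *Il33* has TATAAA at 29 bases before the start, and the distal start has it at 203 bases. This motif is in 12.37% of all windows. AGAACA, in 16.08% of all windows, is in none of the 4 sequences, and neither are TGANTCA (6.75% of windows) and GGGANTTTC (0.94%). Windows were used for 8 of the 10 genes, 11 windows in all, and none for *Tlr4* and *Cd14*. Chromosome 18, which holds *Cd14*, was left out when the windows of the 10 genes were taken. Among the other genes, AGAACA occurs at 74 bases before the distal start of *Il18* and at 131 bases before a start of *Il1r1*. Neither gene changed past the threshold. The *Il18* transcripts with the longest coding part, 576 bases, begin at 50565374 and 50575273, where no window was searched. GGGANTTTC occurs at 211 bases before a start of *Tlr3*. No motif matched overlaps another in these windows, apart from a pair of TATAAA matches on opposite strands at 164 and 160 bases before the start of *Myd88*. A match is a description of the letters, and an absent match says only that the letters are not in the window.

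Among the ligands, *Il33* had normalized counts of 41.4, 56.3 and 53.8 in the vehicle libraries. The corticosterone libraries had 3.21, 6.63 and 5.12. Every corticosterone library was thus far below every vehicle library. The means were 50.5 ± 8.02 (SD, n = 3) and 4.99 ± 1.71 (SD, n = 3), a log2 fold change of -3.36 (SE 0.41, 95% interval -4.22 to -2.50, limma adjusted p = 1.3e-05). As a fold, the level with corticosterone was 0.0973 times that with vehicle, with an interval of 0.0535 to 0.177. The values rest on 51, 73 and 52 reads with vehicle and on 3, 6 and 4 reads with corticosterone, so the lowest corticosterone library is at the 3-read floor. Over the summed 176 and 13 reads the ratio was 0.0985, with an exact 95% interval of 0.0514 to 0.173 that covers counting error only. The two-sided exact permutation test gave p = 0.1, the smallest that 3 against 3 allow. Fits that left out 1 library gave log2 fold changes from -3.59 to -3.08. None of the 31-base stretches of *Il33* transcripts lies in transcripts of another gene.

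*Il18* encodes a ligand of the IL-1 family that is matured by caspase-1, and it (ENSMUSG00000039217) lies on chromosome 9, 50554827 to 50581840. It had 97.3, 153 and 126 normalized counts with vehicle and 112, 103 and 83.2 with corticosterone. The groups overlapped, and the vehicle libraries had the larger spread. The log2 fold change was -0.32 (SE 0.17, limma adjusted p = 0.26), with a 95% interval of -0.68 to 0.041, or 0.622 to 1.03 times the vehicle level.

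*Il1rl1* encodes ST2, the chain that binds IL-33. Its normalized counts were 834, 859.8 and 755 with vehicle and 1716, 1889.8 and 1499 with corticosterone. All corticosterone libraries were above all vehicle libraries, and the third library was the lowest of its group in both groups. The means were 816 ± 54.5 (SD, n = 3) and 1702 ± 196 (SD, n = 3), a log2 fold change of 1.06 (SE 0.075, 95% interval 0.90 to 1.21, limma adjusted p = 2.8e-08). Each value rests on at least 730.0 reads. Fits that left out 1 library gave log2 fold changes from 0.98 to 1.14. The value was 0.98 without the second corticosterone library and 0.99 with upper-quartile scaling, both just under a log2 fold change of 1. The adjusted p stayed under 0.05 in these fits. Of the 31-base stretches of its transcripts, 1.61% also lie in transcripts of another gene.

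The other receptor chains did not pass the test. *Il1r1*, the signalling receptor of IL-1α and IL-1β (ENSMUSG00000026072, chromosome 1, 40225080 to 40317257), had 595, 569 and 603 normalized counts with vehicle and 601, 646 and 558 with corticosterone. Its groups overlapped, with a log2 fold change of 0.028 (SE 0.069, limma adjusted p = 0.86), and the 95% interval of -0.12 to 0.17 leaves room for a change of up to 1.13-fold upward. *Il1rap*, the accessory chain of the IL-1 and IL-33 receptors (ENSMUSG00000022514, chromosome 16, 26581704 to 26730117), had 126, 132 and 123 with vehicle and 157, 166 and 123 with corticosterone. Here 2 corticosterone libraries were above the vehicle range and the third lay just under it. The log2 fold change was 0.21 (SE 0.13, 95% interval -0.067 to 0.49, limma adjusted p = 0.35). *Gm20319*, an antisense gene that shares 552 exonic bases with *Il1rap*, had at most 2 reads in a library.

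**Figure D2:**
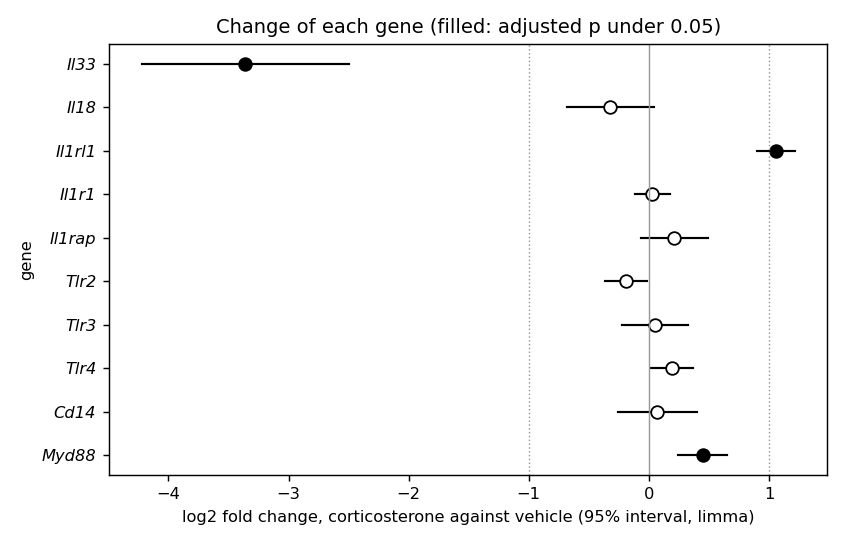
Log2 fold change of each gene, corticosterone against vehicle, with its 95% interval from limma. Filled points have an adjusted p under 0.05, and dotted lines mark a log2 fold change of 1 in either direction. *Il33* lies at -3.36 and *Il1rl1* at 1.06, and the intervals of the 3 Toll-like receptors and of *Cd14* lie between -0.37 and 0.40.

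None of the 3 Toll-like receptors passed the test. *Tlr2* (ENSMUSG00000027995, chromosome 3, 83836272 to 83841767, minus strand) had 322, 330.3 and 313 normalized counts with vehicle and 291, 289 and 265 with corticosterone. The corticosterone libraries lay below the vehicle libraries, and the log2 fold change was -0.19 (SE 0.082, 95% interval -0.37 to -0.020, limma adjusted p = 0.14). *Tlr4* (ENSMUSG00000039005, chromosome 4, 66827584 to 66930284, plus strand) had 268, 285 and 281 with vehicle and 303, 336 and 313 with corticosterone. Its corticosterone libraries lay above the vehicle libraries, with a log2 fold change of 0.19 (SE 0.082, 95% interval 0.016 to 0.37, limma adjusted p = 0.15). Neither passed the test after adjustment, with edgeR adjusted p of 0.11 for each. *Tlr3* (ENSMUSG00000031639, chromosome 8, 45395665 to 45411080, minus strand) had 108, 107 and 114 with vehicle and 122, 105 and 114 with corticosterone, so its groups overlapped. Its log2 fold change was 0.053 (SE 0.13, 95% interval -0.22 to 0.33, limma adjusted p = 0.86).

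*Cd14*, which hands lipopolysaccharide to TLR4 (ENSMUSG00000051439, chromosome 18, 36725067 to 36726798, minus strand), had 88.4, 98.0 and 78.6 normalized counts with vehicle and 81.4, 96.1 and 101 with corticosterone. The groups overlapped, with a log2 fold change of 0.071 (SE 0.16, 95% interval -0.26 to 0.40, limma adjusted p = 0.84). CD14 and TLR2 are best known from myeloid cells, and the myeloid markers were therefore read beside them. Of 8 leukocyte markers, *Ptprc*, *Adgre1*, *Itgam* and *Tyrobp* had no entry among the genes with deposited values, so no level can be given for them. The other 4, *Csf1r*, *Cd68*, *Fcer1g* and *Lyz2*, were measured. The summed normalized count of the 4 was 366 to 419 with vehicle and 281 to 309.6 with corticosterone, with a fall in *Fcer1g* (log2 fold change -0.65, limma adjusted p = 0.0085) and *Lyz2* (-0.37, limma adjusted p = 0.020). The cultures were of a single preosteoblast subclone. Neither the presence of leukocytes nor their part in the levels of *Cd14* and *Tlr2* was tested. Mast cells carry much ST2, and *Kit*, the only one of their 4 markers measured, had 0 to 6.63 normalized counts, a level near or under a few reads in every library. Of the lymphoid markers *Gata3* had 47.5 to 78.6 and *Cd3e* and *Cd4* at most 2.07, and of the endothelial markers *Pecam1*, *Tek* and *Emcn* had at most 7.68. Of the adipocyte markers *Plin1* had at most 2.56, while *Fabp4*, a fatty acid carrier, rose by a log2 fold change of 3.14 (limma adjusted p = 1.3e-06). In bulk cultures fewer cells of a type and less RNA per cell cannot be told apart.

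*Myd88*, the adaptor of IL-1 family receptors and of most Toll-like receptors (ENSMUSG00000032508, chromosome 9, 119335934 to 119341411, minus strand), had 457, 502 and 362 normalized counts with vehicle. The corticosterone libraries had 597, 588 and 599.99. All of them were above the highest vehicle library, and they differed far less among themselves than the vehicle libraries did, with coefficients of variation of 1.10% and 16.2%. The log2 fold change was 0.45 (SE 0.095, 95% interval 0.25 to 0.65, limma adjusted p = 0.0029), a 1.36-fold rise. The limma adjusted p was 0.065 without the third corticosterone library and 0.17 without a variance trend, and the call ended in both. Without the third vehicle library, the lowest, the log2 fold change was 0.31 (limma adjusted p = 0.025). *Myd88* shares 290 exonic bases with *Acaa1a* on the opposite strand, and the library kit, in the form the labels name, does not mark strand, so reads of the shared bases cannot be told apart. *Acaa1a* had 1773 ± 18.1 (SD, n = 3) and 1736 ± 36.2 (SD, n = 3) and did not pass the test (log2 fold change -0.031, limma adjusted p = 0.73). Of the 31-base stretches of *Myd88*, 8.93% also lie in transcripts of another gene.

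Levels of different genes were compared as normalized counts per kb of merged exons. With vehicle, *Myd88* was the highest at 171 ± 27.7 (SD, n = 3), followed by *Il18* at 122 ± 26.9 and *Il1rl1* at 118 ± 7.91, and these neighbours overlapped in their libraries. *Tlr2* came next at 107 ± 2.81, with a range that just met that of *Il1rl1*, and *Il1r1* at 92.6 ± 2.82 was below *Tlr2* in every library. *Cd14* at 51.0 ± 5.60 and *Tlr4* at 50.0 ± 1.64 did not differ beyond their spread, and were followed by *Tlr3* at 21.0 ± 0.743, *Il33* at 17.5 ± 2.78 and *Il1rap* at 11.2 ± 0.395, each without overlap with the one before. With corticosterone *Il1rl1* was the highest at 247 ± 28.4 per kb, overlapping *Myd88* at 231 ± 2.54. *Il18* (96.4 ± 14.5), *Il1r1* (94.5 ± 6.94) and *Tlr2* (93.5 ± 4.89) then overlapped their neighbours, and *Il33* moved to the last place at 1.73 ± 0.593. The accessory chain *Il1rap* had 13.1 ± 2.00 and by this measure was the lowest receptor among the 10 genes in both groups. Its merged exons hold 11360 bases, while its longest annotated transcript has 4520. For *Tlr3*, the next lowest receptor, these lengths are 5207 and 4407 bases. The order of *Il1rap* and *Tlr3* thus depends on the length used. Coefficients of variation of the 10 genes ran from 2.63% to 22.1% with vehicle and from 1.10% to 34.3% with corticosterone, the highest being that of *Il33*.

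Ratios of these levels within a library do not depend on the factor that scales the library. They were chosen after the values were seen, and 8 were computed. The ratio of *Il1rl1* to *Il33* was 8.44, 6.39 and 5.88 with vehicle and 224, 119 and 123 with corticosterone, and the mean ratio was 22.5 times higher after corticosterone. The denominators of the corticosterone ratios are 3 to 6 reads. *Il1rl1* over its partner chain *Il1rap* was 10.9, 10.7 and 10.1 with vehicle and 18.0, 18.8 and 20.1 with corticosterone. The size of this ratio rests on the exon lengths used, which are the same in both groups. *Il1rl1* over *Il1r1* was 1.16 to 1.40 with vehicle and 2.48 to 2.70 with corticosterone. *Tlr4* over *Tlr2* was 0.451, 0.468 and 0.487 with vehicle and 0.564, 0.629 and 0.642 with corticosterone, and the groups did not overlap although neither gene passed the test alone. *Myd88* over the adaptor gene *Tirap* was 3.75, 4.08 and 3.22 with vehicle and 4.83, 4.87 and 4.36 with corticosterone, without overlap. For each of the ratios given so far the two-sided exact permutation test gave p = 0.1, the smallest possible. *Il1r1* over *Il1rap*, *Tlr4* over *Tlr3* and *Tlr4* over *Cd14* overlapped between the groups.

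**Figure D3:**
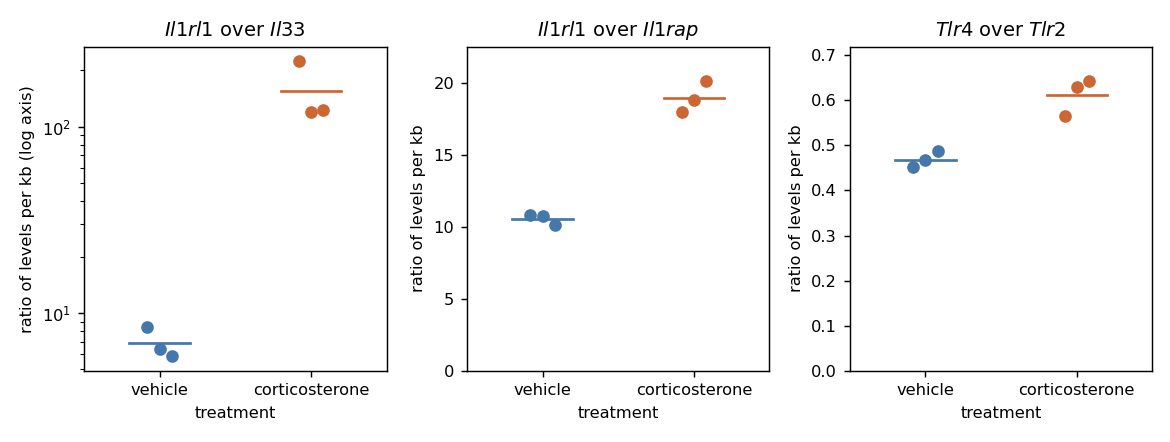
Ratios of levels per kb of exon within each library, for *Il1rl1* over *Il33* (log axis), *Il1rl1* over *Il1rap* and *Tlr4* over *Tlr2*. Points are libraries and lines are group means. The corticosterone points lie above the vehicle points in each panel, from 119 to 224 against 5.88 to 8.44 in the first.

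The wider pathway was read from 7 lists that hold 91 further genes, of which 71 were measured. Of these 71, 10 rose and 9 fell, or 26.8%, against 16.7% of all genes. The share was 27.7% among genes with a mean of at least 10. Every one of the 71 that passed the test reaches this mean, but not all of the 71 do (4 of the 8 maturation genes). The 26.8% and the 27.7% are therefore not shares of genes at like levels. The median log2 fold change of the 71 was 0.017. Of the other ligands, the antagonist *Il1rn* had 10.2 ± 0.799 and 12.3 ± 2.12 (SD, n = 3 each) normalized counts and *Il1a* at most 3.86, and neither passed the test. Of 6 further receptor genes and decoys of this family measured beside *Il1r1*, *Il1rap* and *Il1rl1*, none passed it (the list holds 9 measured genes, of which 1 rose). The IL-36 receptor gene *Il1rl2* had 153 ± 21.6 and 129 ± 8.80 (SD, n = 3 each), with a log2 fold change of -0.24 (limma adjusted p = 0.27). *Il18rap*, the accessory chain of the IL-18 receptor, had 137 ± 3.97 and 126 ± 16.8 (SD, n = 3 each), whereas the ligand-binding chain *Il18r1* had at most 2.21 in any library. The IL-18 binding protein gene *Il18bp* had 102 ± 9.13 and 93.1 ± 10.3 (SD, n = 3 each).

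Among 9 measured Toll-like receptor genes, 1 rose and 1 fell. *Tlr5*, the flagellin receptor, was the highest of them per kb of exon at 105 with vehicle and 129 with corticosterone. Its normalized counts were 551, 464 and 498 with vehicle and 679, 569 and 604 with corticosterone, without overlap (log2 fold change 0.29, SE 0.081, limma adjusted p = 0.018). *Tlr6*, a partner of TLR2 for diacylated lipopeptides, had 51.1, 33.2 and 29.0 with vehicle and 16.1, 13.3 and 10.2 with corticosterone. All corticosterone libraries were below the vehicle libraries (log2 fold change -1.49, SE 0.35, limma adjusted p = 0.0057). Its neighbour *Tlr1*, the other partner of TLR2, had 26.8, 31.6 and 19.7 with vehicle and 26.8, 22.1 and 8.96 with corticosterone, and the groups overlapped (log2 fold change -0.55, limma adjusted p = 0.46). Both share sequence with other genes, 16.6% of the 31-base stretches of *Tlr6* and 20.0% of those of *Tlr1*, so the counting could have split or dropped some of their reads.

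Among 6 co-receptors and folding factors, *Lbp* rose and *Cnpy3* fell. *Lbp*, the lipopolysaccharide-binding protein that passes lipopolysaccharide to CD14 and is a known acute-phase gene, had 1.62, 2.32 and 10.3 normalized counts with vehicle and 39.6, 30.9 and 51.2 with corticosterone. Its vehicle values rest on 15 reads in all, and over 15 and 105 reads the ratio was 9.34 with an exact 95% interval of 5.41 to 17.3 for counting error only (log2 fold change 3.50, SE 0.60, limma adjusted p = 4.5e-04). *Ly96*, the MD-2 chain of the TLR4 complex, had 41.3 ± 13.3 and 56.5 ± 9.97 (SD, n = 3 each) and did not pass the test (limma adjusted p = 0.25). *Cnpy3*, a chaperone of Toll-like receptors, fell from 1812 ± 19.6 to 1533 ± 75.7 (SD, n = 3 each; log2 fold change -0.24, limma adjusted p = 0.0022). The chaperone *Hsp90b1* was the highest of this list per kb of exon and had a log2 fold change of -0.092 (limma adjusted p = 0.19).

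Of 25 measured adaptors and kinases, 4 rose and 4 fell, *Myd88* included, or 32%, which is near the 27.7% of genes with a mean of at least 10, a level that 24 of the 25 reach. *Ticam1*, which encodes TRIF, the adaptor of TLR3 and of the second arm of TLR4, had 1325, 1171 and 1265 normalized counts with vehicle and 1990.3, 1849.99 and 2008 with corticosterone. The rise had a log2 fold change of 0.64 (SE 0.056, limma adjusted p = 3.5e-07), so that both MyD88 and TRIF transcripts were higher. *Sarm1*, a TIR-domain protein best known from axons, fell from 195 ± 15.8 to 116 ± 7.09 (SD, n = 3 each; log2 fold change -0.75, limma adjusted p = 1.7e-04). The kinase genes *Map3k7* (TAK1, log2 fold change 0.25) and *Irak1* (0.13) rose, and *Traf3* (-0.32), *Tab2* (-0.26) and the inhibitor *Tollip* (-0.20) fell, all with limma adjusted p of at most 0.034. *Tirap*, *Irak2*, *Irak4* and *Traf6* had log2 fold changes of 0.094, 0.054, 0.067 and 0.017 and did not pass the test.

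Against 16.7% of all genes, none of the 8 measured genes of cytokine maturation passed limma's adjusted p. *Gsdmd*, the pore-forming gasdermin D, was the highest of them per kb (386 ± 61.5 and 413 ± 23.5 normalized counts, SD, n = 3 each), and *Casp1*, which cleaves pro-IL-18, had at most 6.40 in a library.

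Of 20 measured genes that IL-1 or Toll-like receptor signals induce in many cells, 5 rose and 3 fell, or 40%, against 16.7% of all genes. The share was 27.7% among genes with a mean of at least 10. Of the 20 genes 15 reach that level, among them all 5 that rose and all 3 that fell. The inhibitor *Nfkbia* (IκBα) had 1106, 1084 and 1108 normalized counts with vehicle and 1945, 1827 and 2053 with corticosterone, a log2 fold change of 0.82 (SE 0.053, limma adjusted p = 8.9e-09). The adhesion molecule gene *Vcam1* rose by 0.39, the atypical IκB gene *Nfkbiz* by 0.28 and *Zc3h12a*, which encodes the mRNA-degrading Regnase-1, by 0.38 on the log2 scale. *Lcn2* (lipocalin-2) had no reads with vehicle and 18.2, 23.2 and 21.7 normalized counts with corticosterone. The corticosterone mean of 21.0 was 6.78 times the highest 3-read floor of a vehicle library, 3.10. The chemokine genes *Ccl2* and *Ccl7* and the hyaluronan-binding *Tnfaip6* fell, with log2 fold changes of -2.12, -0.96 and -0.92 (limma adjusted p = 2.1e-04, 0.036 and 0.0067). *Il6* had 4.05, 9.26 and 16.5 with vehicle and 1.07, 3.31 and 2.56 with corticosterone, on 5, 12 and 16 reads against 1, 3 and 2 reads, and did not pass the test (limma adjusted p = 0.11). *Mmp13*, a collagenase of hypertrophic cartilage and bone, was the highest of the list per kb of exon and did not pass the test (log2 fold change 0.13, limma adjusted p = 0.33). The inhibitor *Tnfaip3* (A20) and the chemokine genes *Ccl5*, *Cxcl10* and *Cxcl5* did not pass the test either.

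**Figure D4:**
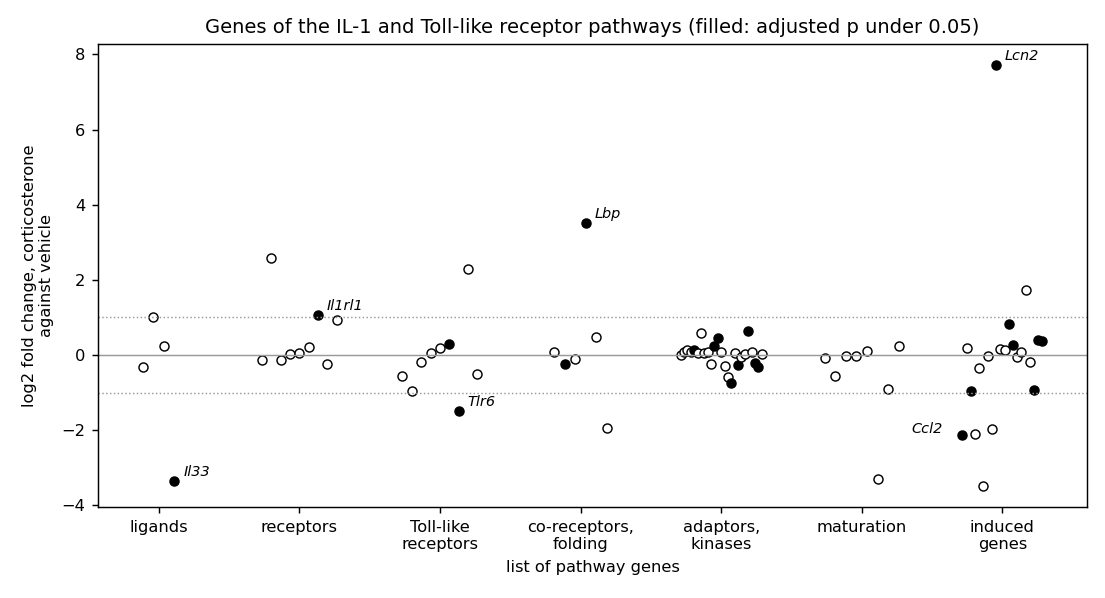
Log2 fold change of each measured gene in the 7 pathway lists, corticosterone against vehicle. Filled points have an adjusted p under 0.05, dotted lines mark a log2 fold change of 1 in either direction, and genes past both are named. *Lcn2* at 7.72, which depends on the pseudocount because it had no vehicle reads, and *Lbp* at 3.50 are the highest filled points, and *Il33* at -3.36 is the lowest.

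The genes whose log2 values followed those of *Il1rl1* most closely over the 6 libraries, among 13880 genes with a mean of at least 10, were *Atp13a3* (Pearson's r = 0.998), *Clk1* (0.997) and *Fyco1* (0.997), and 24 genes reached an r of 0.99. They rose by log2 fold changes of 0.28, 0.39 and 0.37, less than *Il1rl1*. The 6 libraries share the split by treatment, which these correlations largely describe.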

How the data were processed

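RNA of differentiated MC3T3-E1 cells, 3 vehicle and 3 corticosterone cultures, was made into libraries with the NEB Next Ultra RNA kit, which does not mark strand, and sequenced on an Illumina platform. The submitters' processing notes name the build mm10, and the aligner, counting program and annotation are not given in the sources used here. The authors deposited 1 table of a signal per gene and library, named FPKM. Within each library 100% of the deposited values are whole multiples of 1 step (tolerance 0.01), so they are gene counts divided by 1 size factor (0.782 to 1.30), and reads were recovered from them. Libraries of 1 treatment differed by more than sampling noise (chi-square per degree of freedom of at least 3.38). The first and second vehicle libraries differed most, at 12.18, and the next largest value within a treatment was 5.855.

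The 10 genes, the lists and the tests were chosen with earlier results of these data known. The main test was limma 3.58.1 (R 4.3.3, variance trend) on log2(value + 0.1) over all 24016 genes, since none had a mean under 0.1. edgeR 4.0.16 (quasi-likelihood, TMM) and DESeq2 1.42.0 were alternatives on the recovered reads. Pseudocounts of 1 and 0.01, filters at a mean of 1 and 10, other prior variances, other scalings, the replicate number as a block and leaving out each library were also tried. The scripts were tested on simulated counts. Named beside the 10 genes were the list genes with an adjusted p under 0.05, the highest gene of each list, 3 genes most correlated with *Il1rl1*, and genes overlapping a member. Other list genes named were chosen after their values were seen. Symbols, positions and exon lengths came from GENCODE vM21 (GRCm38), which matched 23983 identifiers, and promoters from RefSeq. Counting intervals cover counting error only.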

Additional observations from a re-analysis of the deposited data

How the results depend on the processing

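Over 20 alternatives, *Il33* and *Il1rl1* kept their direction and an adjusted p under 0.05, and *Il18*, *Il1rap*, *Tlr2* and *Tlr4* kept their direction and stayed above it. The alternative without a filter on low values equals the main fit, since no gene had a mean under 0.1, and so adds no check. *Myd88* lost its call without a variance trend (log2 fold change 0.45, limma adjusted p = 0.17) and without the third corticosterone library (0.065), with 0.31 to 0.55 over the fits that left out a library. Changes near 0 turned sign: *Il1r1* was -0.014 with scaling to the same total, -0.040 with upper-quartile scaling and -0.025 to 0.081 with a library left out, *Tlr3* was -0.016 with upper-quartile scaling and -0.00045 to 0.11 with a library left out, and *Cd14* was -0.0098 to 0.16 with a library left out. The cause was not tested. Of the 10 genes, 1 rose without a variance trend and 1 to 2 with a library left out. Past a log2 fold change of 1 were 1 with upper-quartile scaling and 1 to 2 with a library left out. Of the 71 other pathway genes, 6 passed without a variance trend (4 higher, 2 lower, 2 past a log2 fold change of 1), against 19. Over all genes, 6.80% passed without a variance trend (873 higher, 760 lower), against 16.7%. With upper-quartile scaling 6 of the 71 rose, and with a library left out 6 to 8. Over all genes, 1349 rose with upper-quartile scaling and 1419 to 1873 with a library left out, against 2040.

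Deviations from the group mean were not shared between libraries with equal replicate numbers (correlations over 13880 genes of -0.044, 0.0014 and 0.023). Whether cultures with equal numbers were set up together cannot be told from these correlations. With the replicate number as a block, limma called 3 of the 10 genes (16.3% of all genes), with adjusted p of 7.9e-05 for *Il33*, 5.2e-08 for *Il1rl1* and 0.0040 for *Myd88*, and edgeR with the block called 3 (33.2% of the genes it tested). Depth limits *Il33*, whose corticosterone values rest on 3 to 6 reads.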
